A study of Xenopus laevis with 28 samples.

Results

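The 73 Hox gene models of Xenopus laevis were followed through development by RNA sequencing, grouped by cluster, by position within the cluster and by homeolog. They were all the models whose name began with hoxa, hoxb, hoxc or hoxd and a number, out of 45831 models in the table. Of these, 20 belonged to hoxa, 18 to hoxb, 19 to hoxc and 16 to hoxd. X. laevis is an allotetraploid frog with an L and an S subgenome, and the Hox models comprised 36 L and 37 S copies, which formed 35 pairs of 1 L and 1 S copy. The unpaired models were hoxa2.S, hoxa10.L and hoxc6.S.

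Hox genes encode homeodomain transcription factors that give cells their position along the head to tail axis. They lie in clusters, and in vertebrates the genes at one end of a cluster, with low paralog numbers, act in the hindbrain and neck, whereas those at the other end act in the trunk and tail. In many animals the genes also switch on in that order, which is called temporal collinearity. The matched symbols in the RefSeq annotation of the Xenopus_laevis_v10.1 assembly were ordered by paralog number in all 8 clusters, although 1 of 53 matched models, hoxa11.S, was listed on another chromosome than its cluster.

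Poly(A) RNA came from unfertilized eggs and whole embryos of the inbred J strain at Nieuwkoop and Faber (NF) stages 8, 9, 10.5, 12, 15, 20, 25, 30, 35 and 40, which run from blastula through gastrula, neurula and tailbud to tadpole. No group was treated. Both clutches, named Taira and Ueno and each from its own pair of parents, gave 1 library for the egg and each stage, so n = 2 per stage and the spread between libraries includes the clutch. The Ueno label also covers 3 oocyte libraries, and a second Ueno series gave 1 library each at stages 8, 10 and 35. The sample titles give the Taira and Ueno libraries different series numbers, so clutch and series cannot be told apart. The number of embryos per library is not given in the labels. Values are TPM, the length-corrected share that a model takes of all transcripts in its library, and the sequencing depth is unknown.

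The library labelled stage 40 Ueno was left out by rule. It listed 62 of the 73 Hox models at 0, and its summed Hox level of 35.2 TPM lay beside the 35.0 TPM of the Ueno egg. Stage 40 therefore rests on the Taira clutch alone. The library labelled stage 35 Ueno listed 24588 of all models and 25 Hox models at 0, whereas the other staged embryo libraries from stage 20 on, without the library left out, listed 13327 to 17537 of all models and at most 3 Hox models at 0. Of those 25 Hox models, 17 were at 1 TPM or more in stage 35 Taira and 10 in the stage 35 library of the second Ueno series, and none was listed at 0 in the latter. Among landmark genes, goosecoid (gsc.L) was highest at stage 10.5, at 66.3 and 53.9 TPM in Taira and Ueno, and the muscle gene tnnc2.L reached 1246 and 1158 TPM at stage 35. Not every landmark followed the labels in this way: the oocyte gene gdf9.L was at 27.8 and 10.4 TPM in eggs but at 181 and 138 TPM at stage 8, and the globin hba-l5.L was listed at 0 at stages 35 and 40, while its copy hba-l5.Sp was at 79.1 and 101 TPM at stage 35.

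Summed over all 73 models, Hox transcripts took 42.5 and 94.7 TPM at stage 10.5 and 543 and 590.5 TPM at stage 12, with Taira given first here and below. The sum was highest at stage 15, at 1233 and 1249 TPM. At stage 30 it was 527 and 398 TPM, and by stage 35 the libraries held 269 and 247 TPM. In whole embryos, fewer cells expressing a gene and less RNA per cell cannot be told apart. The clusters did not peak together. The hoxd cluster held 71.8% and 77.2% of all Hox TPM at stage 12, and 10.6% and 6.80% at stage 20. Its stage 12 sum of 390 and 456 TPM was nearly all from the hoxd1 pair. There hoxd1.L held 205 and 233 TPM and hoxd1.S 177 and 219 TPM. The hoxb cluster held 11.7% and 10.4% at stage 12 and 43.0% and 60.9% at stage 20.

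**Figure D1:**
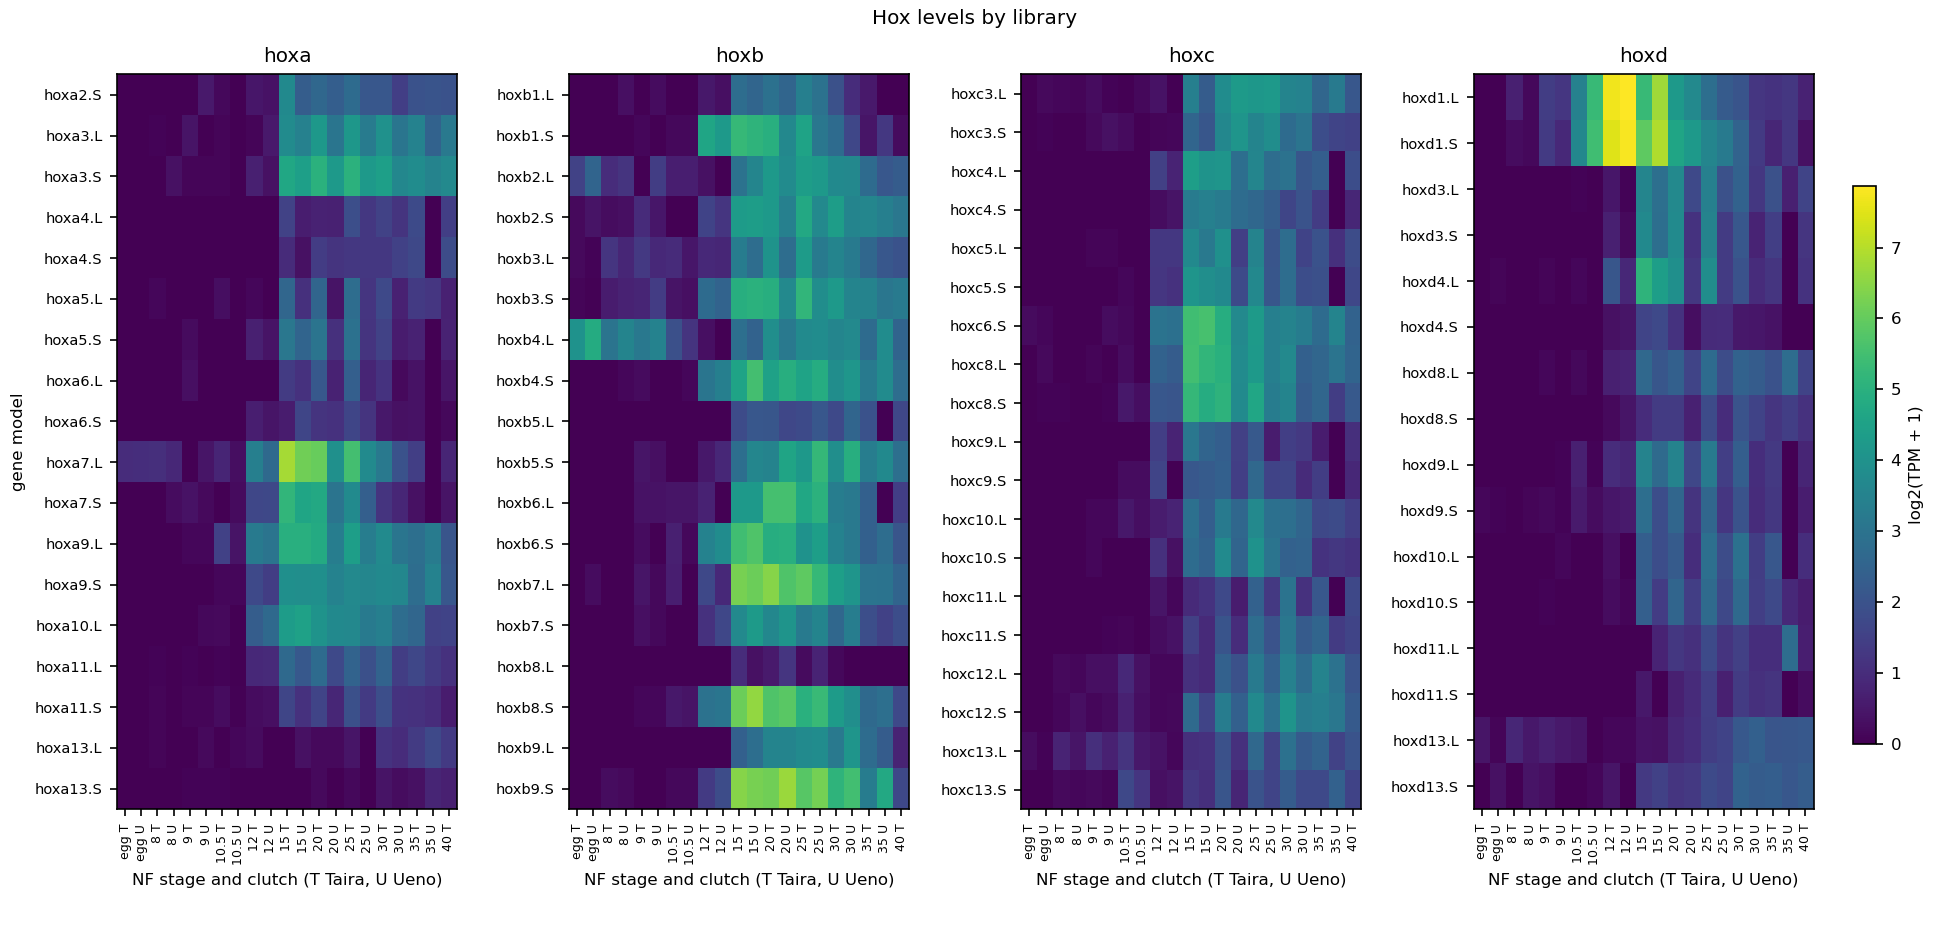
Level of Hox models (rows, by cluster and paralog number) in each of the 21 staged libraries (columns, T Taira and U Ueno), coloured by log2(TPM + 1). The hoxd1 pair is brightest at stage 12, most rows light up at stage 15, and hoxb4.L is the row that is bright in the egg.

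**Figure D2:**
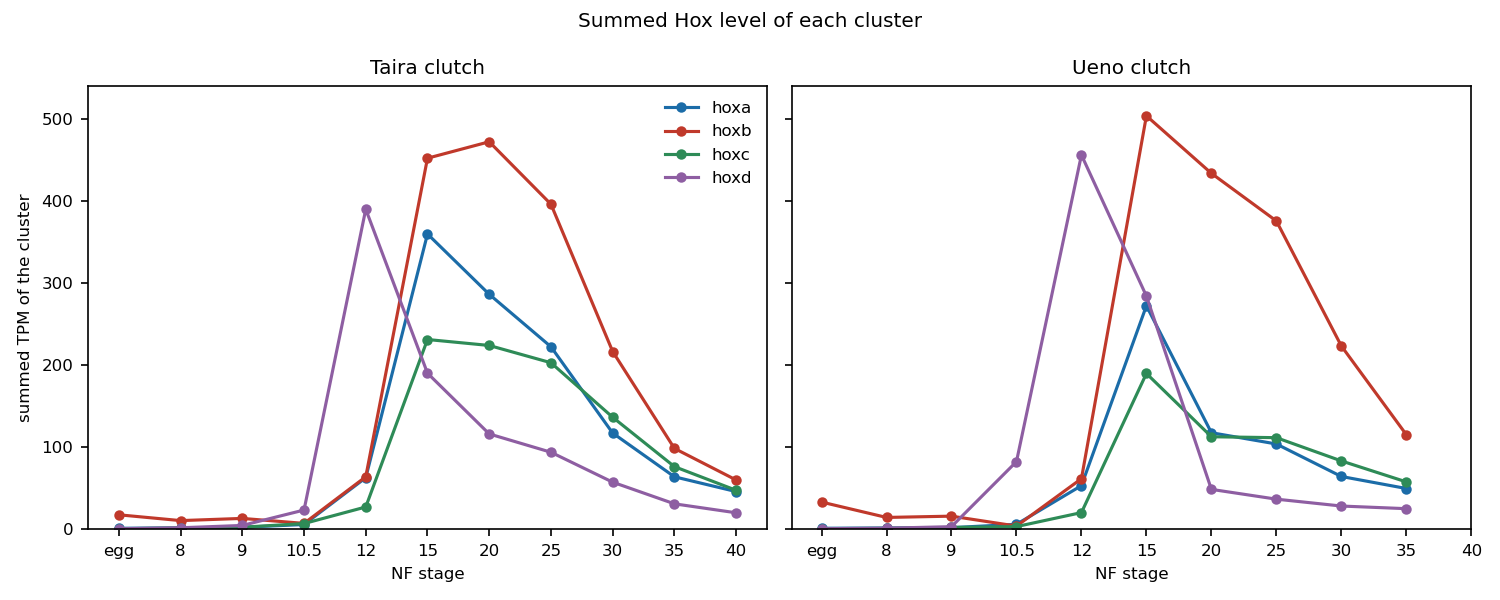
Summed TPM of each Hox cluster (vertical axis) at each stage (horizontal axis, stages equally spaced) in the Taira and Ueno clutches, 1 library per point. The hoxd sum peaks at stage 12, at 390 TPM in Taira and 456 TPM in Ueno, nearly all of it from the hoxd1 pair. The hoxb sum is the highest of the 4 from stage 15 on in both clutches.

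Onset was defined as the first stage from 9 on with at least 1 TPM in both clutches. By this measure 2 models had their onset at stage 9, 3 at stage 10.5, 18 at stage 12, 38 at stage 15 and 10 later, and 2 (hoxa13.S and hoxb8.L) never reached it. One of the 2 at stage 9 was hoxb4.L, which was already present in the egg, and the other hoxd1.L. hoxb4.L keeps this onset at stage 9 in the relations of onset to position below. The highest stage mean up to stage 35 fell at stage 12 for 2 models, at 15 for 31, at 20 for 5, at 25 for 19, at 30 for 10 and at 35 for 6. Over all 72 models that passed the filter of at least 1 TPM in at least 2 libraries, every one differed among stages in the F-test of limma, a linear model with moderated variances fitted to log2(TPM + 1) of all genes (adjusted p under 0.05). Among all 28171 models tested 91.6% did so. The model left out by the filter was hoxa13.S, which reached 0.77 TPM at most in the 21 libraries.

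Before zygotic transcription, 3 L copies were at 1 TPM or more in both eggs or in both stage 8 libraries. The hindbrain and neck gene hoxb4.L (Xelaev18043226m) was the highest, with 15.1 and 27.5 TPM in the eggs, 7.09 and 10.6 TPM by stage 8 and 7.93 and 10.1 TPM by stage 9. Gastrulae of stage 10.5 held 2.80 and 1.28 TPM and those of stage 12 held 0.26 and 0 TPM, while stage 20 embryos held 13.67 and 8.15 TPM. The hoxb4.L profile in poly(A) RNA thus had an egg phase and an embryonic phase with near-absence at stage 12 in both clutches. It fell by 1.76 (SE 0.42, adjusted p = 0.0106) on the log2(TPM + 1) scale from stage 9 to 10.5 and by 1.39 (SE 0.42, adjusted p = 0.0222) from 10.5 to 12, and it was the 1 Hox model called lower in the first of these steps. The return from stage 12 to 15 was called as well (2.51, SE 0.42, adjusted p = 0.000813). Neither fall was called after median-of-ratios or quantile scaling. Leaving out Ueno at stage 9 or 10.5 ended the first call, and leaving out Taira at stage 10.5 or either library at stage 12 brought the Hox models called lower in the second step from 2 to 0. Its homeolog hoxb4.S was at 0 in both eggs and reached no more than 0.17 TPM up to stage 10.5. The library preparation did not mark strand, so reads from an antisense or overlapping transcript at hoxb4.L cannot be told apart from its own. Since poly(A) RNA was sequenced, the egg and blastula values do not give the total amount of a transcript.

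The other maternal models were low. The hindbrain gene hoxb2.L stood at 1.93 and 4.83 TPM in the eggs and at 1.01 and 1.29 TPM at stage 8. For the trunk gene hoxa7.L the eggs gave 1.00 and 1.02 TPM. Both lay far under their later peaks of 18.8 TPM at stage 25 and 90.8 TPM at stage 15.

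Among the first Hox genes to rise was the hoxd1 pair, of the labial group (paralog group 1), whose members pattern the hindbrain; hoxd1 responds to retinoic acid in Xenopus. For hoxd1.L the stage 9 libraries gave 1.70 and 1.38 TPM, the stage 10.5 libraries 10.03 and 38.8 TPM and the stage 12 libraries 205 and 233 TPM. hoxd1.S ran beside it with 1.51 and 0.89, then 11.4 and 43.0, then 177 and 219 TPM. The stage 12 values were the highest of any Hox model, and the Ueno library was above the Taira library at stages 10.5 and 12 in both copies. From stage 9 to 10.5, 4 of 72 Hox models were called higher and 1 lower, against 6.34% and 9.38% of all models tested. Those higher included hoxd1.S (log2 change 3.43, SE 0.53, adjusted p = 0.000558), hoxd1.L (3.05, SE 0.55, adjusted p = 0.00184) and hoxc13.S (1.29, SE 0.35, adjusted p = 0.0213). Without either stage 9 library, or without Ueno at stage 10.5, 2 models were called higher.

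hoxc13.S stands at the opposite end of its cluster from group 1. Its libraries gave 0.16 and 0.08 TPM in stage 9, 2.23 and 1.33 TPM in stage 10.5 and 0.26 and 0.33 TPM in stage 12, and by stage 30 the values were 3.85 and 2.35 TPM. The levels of stage 10.5 thus lay above those on either side in both clutches. The fall from stage 10.5 to 12 was called (it fell by 1.08, SE 0.35, adjusted p = 0.031), but it was lost when any one of the 4 libraries of these stages was left out, and also after median-of-ratios or quantile scaling. The single library of stage 10 in the second Ueno series held 1.18 TPM. Its homeolog hoxc13.L was at 1.28 and 0.41 TPM at stage 10.5.

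From stage 10.5 to 12, the span of gastrulation, 22 Hox models were called higher and 2 lower, while 6.1% of all models were called higher and 23.3% lower. The median log2 change was 0.41 over the Hox models and -0.26 over all models tested. By position, 7 of 25 models of paralogs 1 to 4 were called higher, 9 of 21 of paralogs 5 to 8 and 6 of 26 of paralogs 9 to 13. All 3 sections of the clusters therefore contributed. The largest rise was that of hoxb1.S, a hindbrain gene of the labial group, from 0.12 TPM in each clutch to 23.9 and 17.8 TPM (4.27, SE 0.45, adjusted p = 5.23e-05). Next came hoxd1.L (3.39, SE 0.55, adjusted p = 0.000653) and hoxb6.S, a trunk gene, which moved from 0.63 and 0.13 TPM to 10.1 and 13.3 TPM (3.22, SE 0.29, adjusted p = 1.67e-05). For hoxb4.S the libraries gave 0 and 0.10 TPM, then 7.34 and 9.48 TPM (3.16, SE 0.29, adjusted p = 1.91e-05). In these 4 genes both stage 12 libraries lay above both stage 10.5 libraries. They were named for their large rises in this step, so this adds no support.

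The broadest step was from stage 12 to 15, when the neural plate forms. There 56 of 72 Hox models were called higher and 1 lower, against 12.3% and 10.4% of all models, and the median log2 change was 1.96 for Hox models and 0.04 for all. The share called higher was 14 of 19 in hoxa, 16 of 18 in hoxb, 15 of 19 in hoxc and 11 of 16 in hoxd, and 19 of 25, 19 of 21 and 18 of 26 for paralogs 1 to 4, 5 to 8 and 9 to 13. The thoracic-level gene hoxb7.L had the largest rise, from 2.23 and 0.86 TPM to 75.9 and 67.5 TPM (4.89, SE 0.30, adjusted p = 2.62e-07). hoxb9.S, long used as a marker of posterior neural tissue in Xenopus, went from 1.51 and 2.56 TPM to 85.0 and 74.9 TPM (4.76, SE 0.35, adjusted p = 1.2e-06). In hoxa3.S, which acts in the hindbrain and pharyngeal region in the mouse, the change was from 0.61 and 0.28 TPM to 24.5 and 20.8 TPM (4.04, SE 0.31, adjusted p = 1.69e-06). hoxb6.L followed, from 0.67 and 0 TPM to 18.1 and 17.8 TPM (3.87, SE 0.50, adjusted p = 0.000127). All 4 were well apart between the stages in both clutches, but they were named for their large rises in this step.

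The model called lower in this step was hoxd1.L, at 38.2 and 107 TPM at stage 15 after 205 and 233 TPM at stage 12 (it fell by 1.75, SE 0.55, adjusted p = 0.0347). This call was lost without either stage 12 library or without Taira at stage 15, when no Hox model was called lower. hoxd1.S, at 59.0 and 121 TPM at stage 15, moved the same way in both clutches but was not called. The hoxd1 and hoxb1 genes thus parted in time: the hoxd1 pair peaked at stage 12, hoxb1.S at stage 15 with 37.7 and 33.5 TPM, and hoxb1.L at stage 25 with 9.62 and 6.82 TPM. The hoxb1 values lay above both stage 10.5 libraries of their gene.

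The highest model of each paralog number, by stage mean with its SD over the 2 clutches, marks the range of levels along the clusters. In the anterior groups these were hoxd1.L with 218.8 ± 19.6 TPM at stage 12, hoxb2.S with 19.4 ± 0.73 TPM, hoxb3.S with 30.7 ± 1.46 TPM and hoxb4.S with 33.8 ± 15.9 TPM, the last 3 at stage 15. In the middle groups they were hoxb5.S with 27.0 ± 13.7 TPM at stage 25, hoxb6.S with 46.9 ± 6.10 TPM, hoxa7.L with 90.8 ± 27.5 TPM and hoxb8.S with 81.6 ± 20.5 TPM, again at stage 15 for the latter 3. Among the posterior groups, hoxb9.S reached 85.7 ± 21.5 TPM at stage 20 and hoxa10.L 20.5 ± 1.91 TPM at stage 15. The most posterior genes were lower and later, with hoxc11.S at 5.70 ± 2.73 TPM, hoxc12.S at 12.2 ± 5.15 TPM and hoxc13.L at 5.18 ± 2.06 TPM, all at stage 30. Of the models of paralogs 11, 12 and 13 none exceeded a stage mean of 12.2 TPM. TPM corrects for length, so levels can be set side by side, but where the L and S copies are near-identical the split of reads between them by the authors' counting is uncertain.

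Pooled over the 4 clusters, the mean paralog number weighted by TPM was higher in later embryos between stages 12 and 35. It was 2.10 and 1.90 in stage 12 libraries and 5.59 and 5.10 in stage 15 libraries. Later it came to 5.80 and 6.04 (stage 20), 6.44 and 6.52 (stage 30) and 6.60 and 6.80 (stage 35). It was higher at each later stage of these in both clutches, with the widest gap from stage 12 to 15. This mean counts the hoxd1 pair heavily at stage 12. The single stage 40 library gave 6.15. At stage 12 the mean was 4.40 and 4.43 within hoxa and 3.74 and 4.27 within hoxb. Within hoxc it was then 7.26 and 7.08, and within hoxd 1.10 and 1.05. In every cluster the stage 35 values lay above these in both clutches. After stage 15, however, the clusters differed. From stage 15 to 35 the mean went from 6.80 and 6.72 to 8.78 and 8.44 within hoxc, and from 3.27 and 1.93 to 8.47 and 9.22 within hoxd. Within hoxa it was 5.55 and 5.70 at stage 15, then 5.53 in Taira and 6.44 in Ueno at stage 35. Within hoxb, whose models end at paralog 9, it was lower at the later stage in both clutches, at 5.04 and 5.61 after 5.97 and 5.96.

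The clusters differed in how position went with timing. Across models, Spearman's rho between paralog number and the stage of the highest mean was 0.77 in hoxc (n = 19) and 0.76 in hoxd (n = 16), but 0.11 in hoxa (n = 20) and -0.07 in hoxb (n = 18), and 0.49 over all 73. These are descriptions over genes of the same libraries, which are not independent, and no p is given. Within single clutches the value lay at 0.74 to 0.75 in hoxc and 0.72 to 0.74 in hoxd, and at 0.16 and 0.22 in hoxa. In hoxb it was -0.49 in Taira and -0.01 in Ueno. The clusters span unlike ranges, since the hoxb models end at paralog 9 and those of hoxa, hoxc and hoxd run to 13. By the mean, the hoxc models of paralogs 4 to 8 all peaked at stage 15 and hoxc3 at 25 in L and 20 in S. The later hoxc peaks, at stages 25 to 35, were those of hoxc9.S and of paralogs 10 to 13. Whether hoxb differs from hoxc over shared paralogs was not tested. The hoxd order ran from hoxd1 at stage 12 through hoxd3, hoxd4 and hoxd9 at 15 and hoxd10 at 25 to hoxd13 at 30, with L and S copies at the same stage in each of these pairs. The hoxd8 pair stood outside that order, with peaks at stage 35 in L and 30 in S, and hoxd11 peaked at the same stages as hoxd8. The hoxd8.L course was nearly level, however, with means of 4.30 TPM at stage 15, 3.2 TPM at stage 20 and 4.47 TPM at stage 35. All these peak stages are those of the mean of the clutches. The stage 35 peaks of hoxd8.L and hoxd11.L rested on stage 35 Ueno, at 5.99 and 6.07 TPM against 2.94 and 1.02 TPM in Taira. The second Ueno series held 5.23 and 0.73 TPM. In Taira alone both peaked at stage 25 and the hoxd3 pair at stage 20. hoxd10.L peaked at stage 30 in Taira and 15 in Ueno. In hoxb the S copies of hoxb1, hoxb2, hoxb3, hoxb4, hoxb6, hoxb7 and hoxb8 all had their highest mean at stage 15. In Taira alone hoxb2.S, hoxb3.S and hoxb4.S were highest at stage 25. The mean of hoxb2.S was near-equal at the 2 stages, at 19.4 TPM at stage 15 and 19.1 TPM at stage 25.

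**Figure D3:**
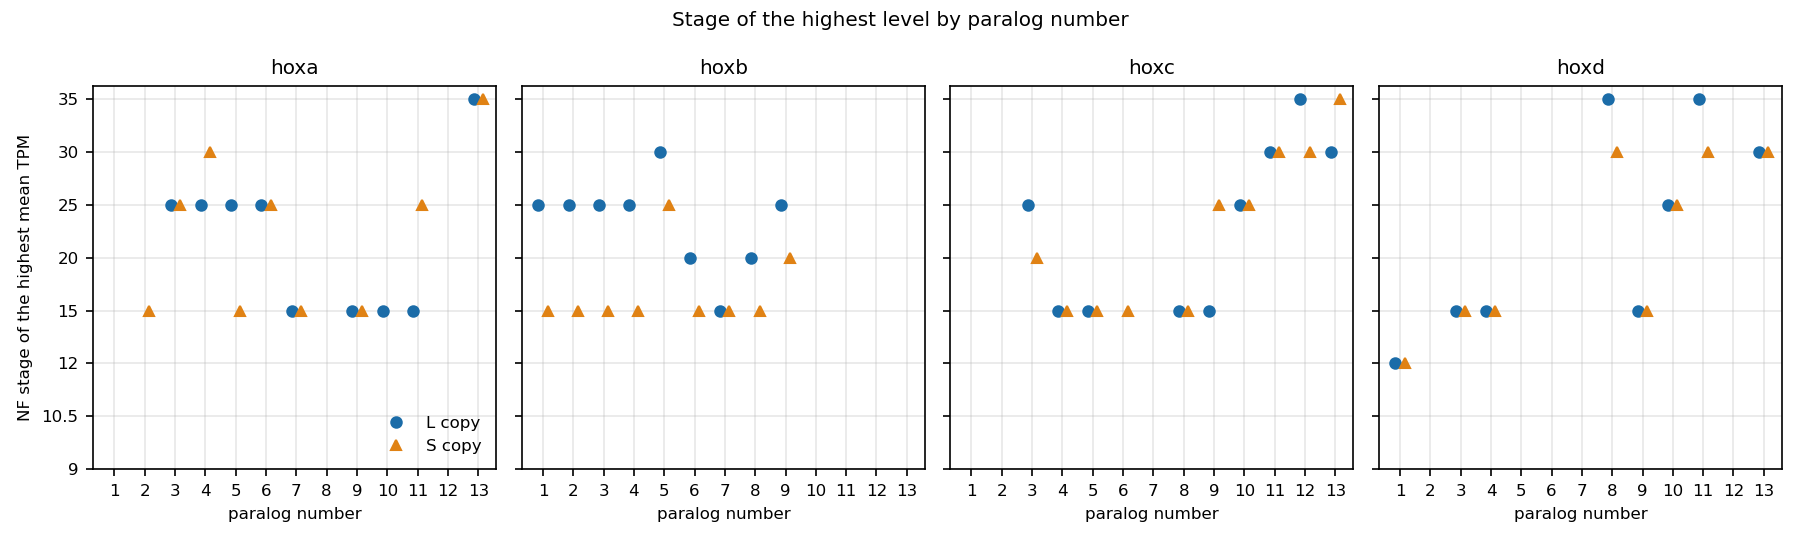
Stage with the highest mean TPM of the 2 clutches (vertical axis, stages equally spaced) against paralog number (horizontal axis) for Hox models, circles for L and triangles for S copies, 1 panel per cluster. In hoxc and hoxd the points climb to the right (rho 0.77 and 0.76). They do not in hoxa and hoxb (0.11 and -0.07), and the hoxb models end at paralog 9. In hoxb the S copy peaks before the L copy in 8 of 9 pairs by this mean, but in 4 of 9 in Taira alone.

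Onset showed a weaker relation to position. With onset at 1 TPM in both clutches rho was 0.30 over 71 models, 0.76 in hoxd (n = 16), 0.23 in hoxc (n = 19), -0.05 in hoxa (n = 19) and -0.00 in hoxb (n = 17). hoxd alone kept a value above 0.7 at thresholds of 0.5, 1 and 5 TPM, at 0.71, 0.76 and 0.85. At 1 TPM, however, 11 of the 16 hoxd models shared an onset at stage 15. The hoxd1 pair came earlier, and hoxd11.L, hoxd11.S and hoxd13.L later. Only 6 hoxd models reached 5 TPM in both clutches. There the value set the hoxd1 pair against hoxd3.L, hoxd3.S, hoxd4.L and hoxd9.L, which all came on at stage 15. When onset was instead the first stage at 10% of a gene's own highest mean, rho was -0.00 over all models and 0.25 in hoxd. By that measure 44 of 73 models had their onset at stage 15 and 21 at stage 12, and these stages held members of every cluster. It also set hoxc13.L and hoxd13.L at stage 9, at means of only 0.87 and 0.54 TPM. At stage 12 these 2 models were at 0.195 and 0.10 TPM. hoxc13.S had its onset at stage 10.5 by both measures, with a mean of 1.78 TPM there and 0.295 TPM at stage 12. How far such low early values set rho was not tested. By this relative measure most Hox models therefore came on at the same pair of stages.

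Between stages 15 and 20, 2 Hox models were called higher and 0 lower, against 2.27% and 0.99% of all models. At an unadjusted p under 0.05 in the same limma fit, 7 were higher and 13 lower, and median-of-ratios and quantile scaling each called 2 lower. The 2 called higher were both of hoxc. hoxc3.S, of a group absent from the hoxc cluster of the mouse, was at 4.94 and 3.32 TPM at stage 15 and 11.5 and 16.3 TPM at stage 20 (1.54, SE 0.26, adjusted p = 0.00958). hoxc12.L, a posterior gene, was at 1.13 and 0.93, then 4.41 and 2.85 TPM (1.17, SE 0.27, adjusted p = 0.0347). No Hox model was called higher without Ueno at stage 15 or 20, 1 was without Taira at stage 20, and without Taira at stage 15 or 20 the number called lower was 2 and 5.

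From stage 20 to 30, through the tailbud stages, the models called lower and those called higher lay in different sections of the clusters. In all, 6 Hox models were called higher and 15 lower, where 7.19% and 4.7% of all models were. The number called higher thus lay near the share of all models, and it depended on the settings and libraries, as given below. Those called lower were 7 of 25 models of paralogs 1 to 4 and 8 of 21 of paralogs 5 to 8, with none called higher in either section. Those called higher were 6 of 26 of paralogs 9 to 13, with none called lower. The median log2 change was -0.72, -0.87 and 0.08 in the 3 sections, and -0.09 over all models tested. The summed level of paralogs 9 to 13 was nevertheless lower at stage 30 than at 20, at 181 after 229 TPM in Taira and 142 after 182 TPM in Ueno. The difference between the sections was not tested.

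The largest fall was in hoxa7.S, from 26.0 and 7.10 TPM to 1.26 and 0.78 TPM (it fell by 2.88, SE 0.43, adjusted p = 0.000644). Its homeolog hoxa7.L went from 64.3 and 14.5 TPM to 7.99 and 2.93 TPM (it fell by 2.42, SE 0.51, adjusted p = 0.0068). hoxd1.S dropped by 2.51 (SE 0.53, adjusted p = 0.007), from 23.9 and 17.6 to 4.66 and 1.54 TPM, and hoxd1.L by 2.31 (SE 0.55, adjusted p = 0.0145), from 17.6 and 12.0 to 3.15 and 1.37 TPM. The libraries of the 2 stages did not overlap in any of these 4 genes, although Taira lay well above Ueno in hoxa7. These genes were named for their large falls in the same libraries, so this adds no support.

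The posterior genes that rose were of groups 11, 12 and 13, which in the mouse pattern the lower trunk, limbs, tail and urogenital region. hoxd13.L was at 0.81 and 1.02 TPM at stage 20 and 3.48 and 4.31 TPM at stage 30 (1.35, SE 0.24, adjusted p = 0.00196). hoxc11.S was at 3.11 and 0.99, then 7.63 and 3.77 TPM (1.17, SE 0.35, adjusted p = 0.0457). For hoxd13.S the values were 1.31 and 1.49, then 4.52 and 3.86 TPM (1.11, SE 0.26, adjusted p = 0.0119). hoxc13.L rose from 2.84 and 1.13 to 6.64 and 3.73 TPM (1.07, SE 0.30, adjusted p = 0.0309), and hoxa13.L and hoxc12.L completed the list. All 6 were low at stage 20, at most 4.41 TPM. The number called higher was 1 or 2 without any single library of stages 20 and 30, and the number called lower was 7 without Taira at stage 20 and 4 without Ueno at stage 30. hoxd13.L was not called under 2 of 14 alternatives.

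From stage 30 to 35, 6 Hox models were called lower and 0 higher, against 0.909% and 2.09% of all models, and 26 and 0 at an unadjusted p under 0.05 in the limma fit. Quantile scaling called 8 lower and median-of-ratios scaling 5, of which 3 and 1 were among the 6. The 6 were hoxb6.L, hoxb8.S, hoxb7.S, hoxb7.L, hoxb1.L and hoxc3.S, 5 of them of the hoxb cluster. hoxb8.S fell by 1.33 (SE 0.26, adjusted p = 0.0109), from 19.03 and 13.96 TPM to 5.42 and 6.36 TPM. hoxb6.L, at 9.08 and 8.02 TPM before, was at 4.29 TPM in Taira and listed at 0 in Ueno (it fell by 2.05, SE 0.50, adjusted p = 0.0399), while the second Ueno series held 3.35 TPM. hoxb7.S fell by 1.27 (SE 0.29, adjusted p = 0.0296) and hoxb7.L by 1.26 (SE 0.30, adjusted p = 0.0361), with 7.12 and 7.01 TPM left in hoxb7.L. This step depends on the stage 35 Ueno library described above: 3 models were called lower without it, 4 with the second-series library in its place, of which 2 were among the 6, and 15 without Taira at stage 35. Without Taira and without Ueno at stage 30 the numbers were 1 and 2.

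By stage 35 the median Hox model held 24.2% of its highest stage mean. The median was 20.0% for paralogs 1 to 4, 10.5% for 5 to 8 and 41.8% for 9 to 13. Group 1 was lowest with 2.62% over its 6 models, and group 13 highest with 95.2% over 6 models. In Taira alone the medians for the 3 sections were 23.7%, 13.3% and 42.7%. The retention at stage 35 rose with paralog number in hoxc (rho 0.67) and hoxd (rho 0.74) and not in hoxb (rho -0.12). In Taira alone rho was 0.48 in hoxc, 0.83 in hoxd and -0.07 in hoxb. A model with a late peak keeps a high share by this measure. The relation is therefore not independent of that of the peak stage. hoxd11.L is an instance of a value set by 1 library, since its 6.07 TPM in stage 35 Ueno stood against 1.02 TPM in Taira and 0.73 TPM in the second Ueno series.

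The L and S copies were compared as the difference of log2(TPM + 1) averaged over stages 12 to 35 in the limma fit of all 6651 pairs. L was called higher in 12 Hox pairs and S in 13, with 10 not called, whereas over all pairs 51% were called toward L and 32.7% toward S. The median difference was 0.03 in the Hox pairs and 0.23 over all pairs. In hoxa 5 pairs were called toward L and 1 toward S, in hoxc 2 and 2, and in hoxd 4 and 2. In hoxb 8 of 9 pairs were called toward S, with hoxb7 the exception. The median was 0.37 in hoxa, -1.36 in hoxb, 0.05 in hoxc and 0.29 in hoxd.

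The widest difference was in hoxb8, whose L copy never exceeded 1.32 TPM in the 21 libraries while the S copy reached 67.2 and 96.1 TPM at stage 15 (S higher by 18.1-fold on the TPM + 1 scale, log2 difference -4.17, SE 0.09, adjusted p = 9.69e-15). hoxb9 followed (-2.26, SE 0.13, adjusted p = 5.81e-10), then hoxb5 (-1.96, SE 0.14, adjusted p = 8.12e-09) and hoxb1 (-1.67, SE 0.12, adjusted p = 6.43e-09), and S was above L in 12, 12 and 11 of the 12 libraries. Wide differences toward L were found in hoxb7 (1.52, SE 0.11, adjusted p = 1.19e-08), hoxd4 (1.51, SE 0.15, adjusted p = 2.85e-07) and hoxa7 (1.29, SE 0.10, adjusted p = 1.37e-08), with L above S in 11 libraries for each. The added 1 TPM narrows the differences of low pairs. The 12 libraries are stages of the same 2 clutches, and the fit takes out a constant clutch difference. These SE and p-values therefore do not measure the spread from clutch to clutch.

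**Figure D4:**
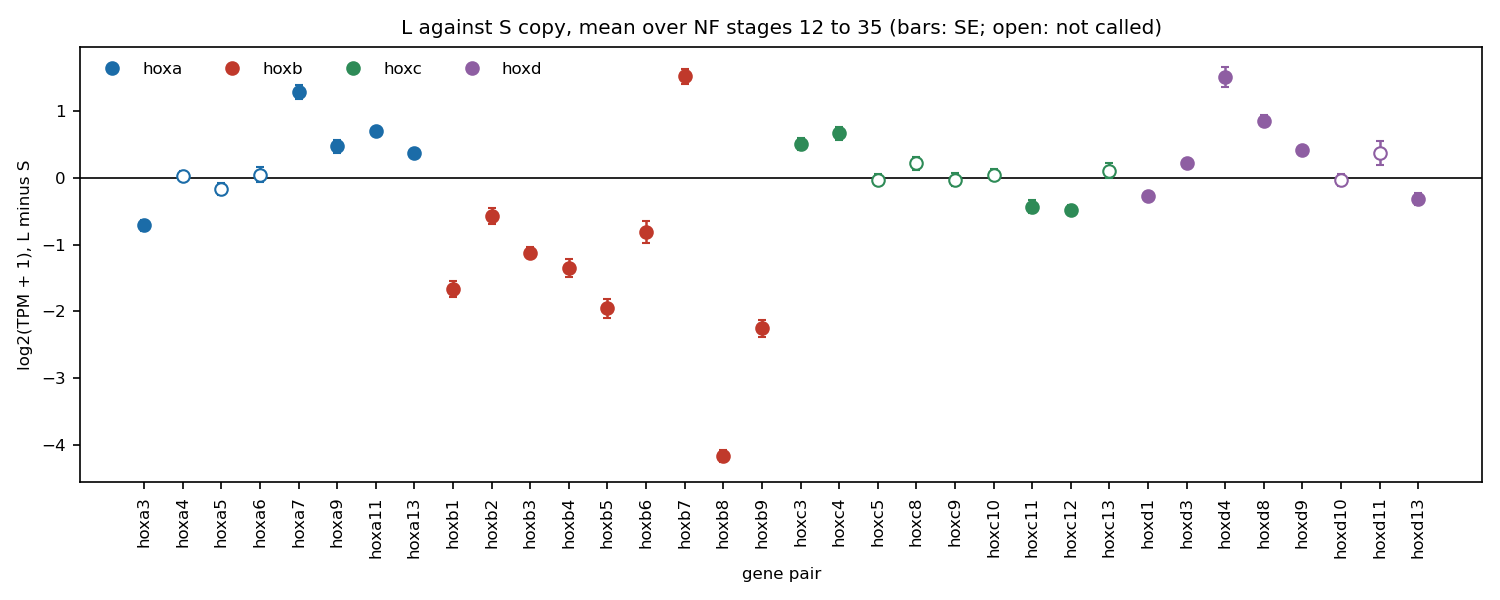
Difference between the L and S copy of Hox pairs (vertical axis, L minus S of log2(TPM + 1), mean over stages 12 to 35; bars are the SE; open points were not called) by cluster along the horizontal axis. In hoxb 8 of 9 pairs lie below 0 and hoxb7 lies above, and hoxb8 is lowest at -4.17.

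In hoxb the 2 copies also differed in the stage of their highest mean. The S copy had its highest mean at an earlier stage than the L copy in 8 of 9 hoxb pairs and at the same stage in hoxb7. This order of peaks came from the mean and from Ueno: in Taira alone S peaked earlier in 4 of the 9 pairs, L in 2 and both together in 3. At 1 TPM the S copy also had an earlier onset in 6 pairs, but a fixed threshold favours the copy with the higher level. By onset at 10% of a gene's own highest mean, S came earlier in hoxb1, hoxb3, hoxb6 and hoxb7, and L in hoxb4, with its egg phase. In the remaining hoxb pairs both copies then shared a stage. In the other clusters S peaked earlier in 5 of 26 pairs, L in 5 and both together in 16. hoxb6 shows the pattern at near-equal height. hoxb6.S was at 42.6 and 51.2 TPM at stage 15, when hoxb6.L was at 18.1 and 17.8 TPM. At stage 20 the order had turned, with 29.2 and 30.1 TPM for S and 45.5 and 45.9 TPM for L.

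To measure this, the L minus S difference at stages 12 and 15 was subtracted from that at stages 25 and 30, a contrast chosen after these courses had been seen. The hoxb calls and p-values below therefore describe the size of the pattern in the same libraries and add no support for it. Of the 35 Hox pairs, 8 shifted toward L and 5 toward S, against 25.9% and 22.8% of all pairs, so the numbers over the whole set lay near or below the background. By cluster, hoxb had 6 toward L and 1 toward S of 9 pairs, and the other clusters together 2 and 4 of 26. The largest shifts toward L were in hoxb6 (2.60, SE 0.41, adjusted p = 0.000193), hoxb1 (2.57, SE 0.29, adjusted p = 1.3e-05) and hoxb4 (2.07, SE 0.34, adjusted p = 0.000245). Shifts toward S included hoxb5 (-1.53, SE 0.35, adjusted p = 0.00274) and hoxa9 (-1.32, SE 0.24, adjusted p = 0.000564). With a pseudocount of 0.1 in place of 1 hoxb5 was at -0.67 and not called, nor were hoxb2, hoxb7, hoxd1 and hoxd3, and hoxb had 5 pairs toward L and 0 toward S. With a pseudocount of 5 hoxb7, hoxd1 and hoxd3 were not called, and hoxb had 5 and 1. Leaving out single libraries of these stages gave 6 or 7 pairs toward L and 3 to 5 toward S, and without Ueno at stage 12 or at stage 25 the number toward S was 3.

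**Figure D5:**
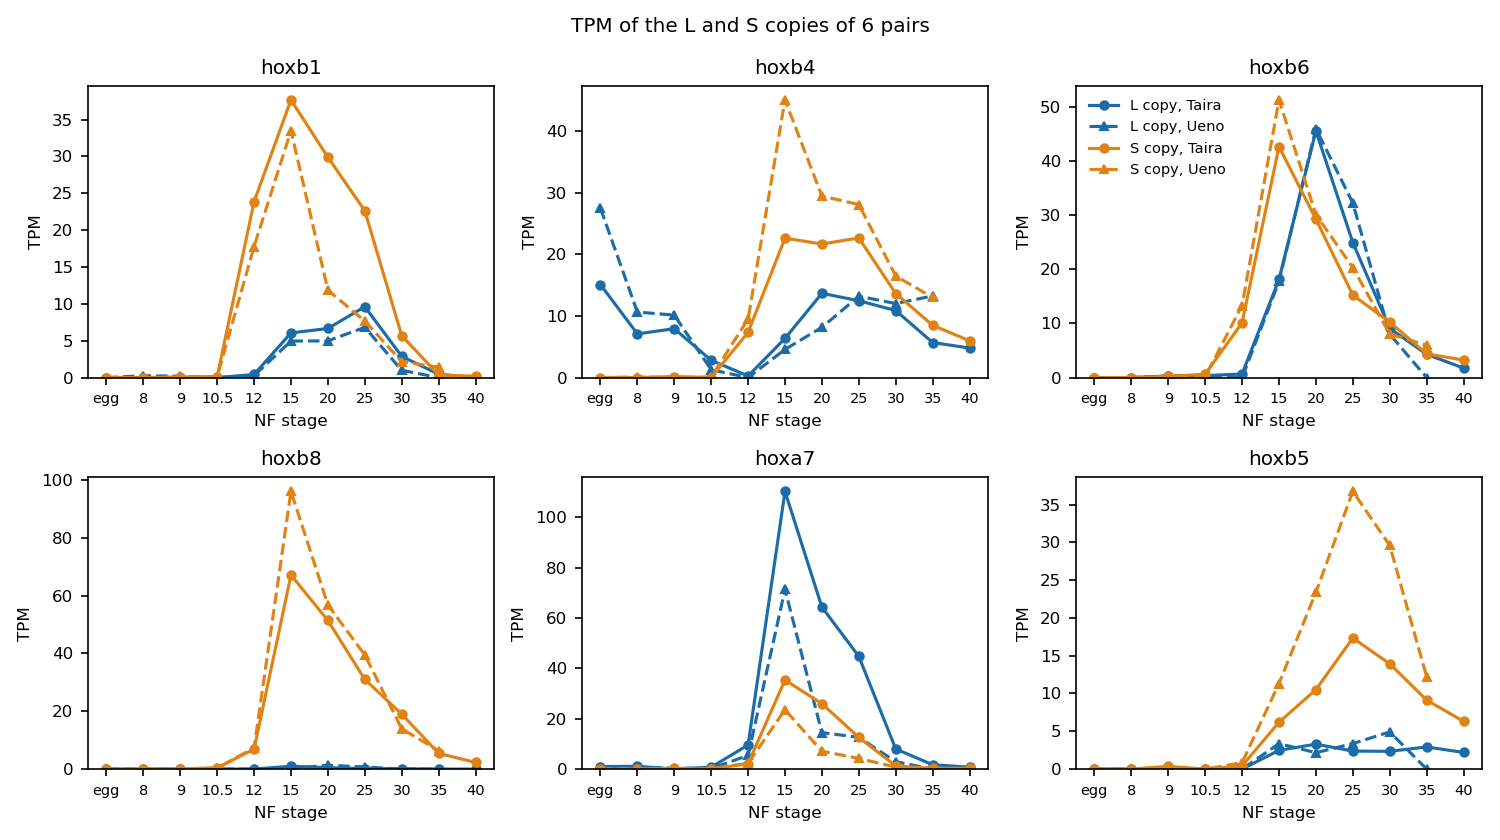
TPM of the L copy (blue) and S copy (orange) of 6 Hox pairs at each stage (horizontal axis, stages equally spaced) in the Taira (solid, circles) and Ueno (dashed, triangles) clutches, 1 library per point. In hoxb1, hoxb4 and hoxb6 the S copy is above the L copy at stage 12, hoxb8.L stays near 0, hoxa7.L is above hoxa7.S at stage 15, and hoxb4.L is present in the egg.

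The clutches differed in level. In the clutch term of the fit over 21 libraries, 1 Hox model was called higher in Ueno (hoxb5.S) and 27 lower, against 6.55% and 44.9% of all models, and the median was -0.31 for Hox models and -0.34 for all. By cluster the median was -0.37 in hoxa, 0.03 in hoxb, -0.40 in hoxc and -0.22 in hoxd, and those called lower were 8 of 19, 1 of 18, 11 of 19 and 7 of 16 models. Median-of-ratios scaling, which moved the median of all models to -0.09, called 6 Hox models higher and 7 lower, against 15.8% and 23.4%, and quantile scaling called 7 and 2, against 17.7% and 18.3%. The 6 were all of hoxb, while the 7 were 6 of hoxd and 1 of hoxa. In the deposited TPM the number called lower was 12 to 14 when any one library of stages 20, 25 or 30 was left out.

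At stage 20 the hoxb sum was 472 and 434 TPM in Taira and Ueno, whereas hoxa was at 286 and 117, hoxc at 224 and 113 and hoxd at 116 and 48.4 TPM. In a fit of the 6 libraries of stages 20, 25 and 30, chosen after the data had been seen, 5 Hox models were called higher in Ueno and 47 lower, against 12.8% and 59.2% of all models. With median-of-ratios scaling these numbers were 18 and 17, against 32.4% and 31%, and by cluster 11 of 17 hoxb models were called higher and 1 lower, while hoxd had 2 and 7 of 16. A fit of all 21 libraries with a clutch term for these stages alone called 1 Hox model higher and 41 lower, against 6.19% and 43.1%, and after median-of-ratios scaling 11 and 13, against 18.7% and 22.6%, of which 8 and 0 were hoxb. Taira and Ueno values at stage 25 were 17.3 and 36.7 TPM for hoxb5.S, 56.1 and 73.6 TPM for hoxb9.S, 44.8 and 12.6 TPM for hoxa7.L and 13.4 and 1.58 TPM for hoxd4.L. Neural and muscle landmark genes also differed between the clutches at that stage. In the fit of the 6 libraries on deposited TPM, the median Ueno minus Taira difference was -0.67 over all models and -0.73 over Hox models. Counts of landmark models lower in Ueno are to be read against that offset. Of 5 neural models 4 were lower in Ueno and sox2.S was higher (112 and 150 TPM), and their summed level was 312 and 268 TPM, with ncam1.L at 44.0 and 5.52 TPM. Of 4 muscle models 3 were higher in Ueno and tnnc2.L was lower (273 and 207 TPM), and their summed level was 808 and 1092 TPM. Their part in the Hox difference was not tested. With 1 library per clutch and stage, clutch and library cannot be told apart at a single stage. In the clutch fits the stages of 1 clutch stood as its replicates, so the calls measure a difference held over stages. They do not measure the spread from clutch to clutch.

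Lists of other genes gave the setting. Among 32 models of known regulators of Hox expression and of trunk and tail signals, 14 were called higher and 1 lower from stage 9 to 10.5, and in the next step 10 and 1. Over all models tested the shares called higher and lower were 6.34% and 9.38% in the first of these steps and 6.1% and 23.3% in the second. Brachyury (t.S), a mesoderm factor of the posterior growth zone, went from 3.82 and 3.30 to 199 and 301 TPM from stage 9 to 10.5 (5.75, SE 0.46, adjusted p = 2.39e-06). cdx2.S, of the caudal family that activates trunk Hox genes, went from 5.43 and 34.0 to 161 and 274 TPM from stage 10.5 to 12 (3.81, SE 0.44, adjusted p = 8.04e-05). In the 3 steps from stage 12 to 15, 15 to 20 and 20 to 30 the list had 6, 0 and 1 models called higher and 7, 5 and 13 called lower. The shares of all models were 12.3%, 2.27% and 7.19% higher and 10.4%, 0.99% and 4.7% lower. Over the alternatives the last 2 numbers ranged from 0 to 9 and from 4 to 16, with 4 when the library labelled stage 40 Ueno was included. cdx1.S went from 55.7 and 8.93 to 1.65 and 0.37 TPM in the last of these (it fell by 3.64, SE 0.60, adjusted p = 0.00125). No test linked these genes to the Hox models.

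Of 6 models of TALE homeodomain partners, which bind DNA together with Hox proteins, 3 were called higher from stage 10.5 to 12 and none lower, against 6.1% and 23.3% of all models. In the step before, from stage 9 to 10.5, 1 was called higher and 2 lower, against 6.34% and 9.38%. The 6 were copies of pbx2, pbx3 and meis1, and the other partner genes sought matched no model. The libraries gave 2.61 and 0.83 TPM for meis1.L in stage 10.5, 11.7 and 9.37 TPM in stage 12 and 60.7 and 45.8 TPM in stage 15, with both steps called (2.16, SE 0.37, adjusted p = 0.000851, then 2.23, SE 0.37, adjusted p = 0.000776). Its homeolog meis1.Sp had no such rise over these steps, at 2.12 and 3.20 TPM in stage 12 and 1.27 and 0.48 TPM in stage 15. It was higher later, at 5.02 and 6.30 TPM in stage 20. pbx3.L was at 2.94 and 2.61 TPM in stage 9 and 0.11 and 0 TPM in stage 12. Of 11 models of genes that flank Hox clusters in vertebrates, 2 were called higher in each of the first 2 steps, the L and S copies of evx1, against 6.34% and 6.1% of all models. Called lower were 1 and 2 of the 11, near or below the 9.38% and 23.3% of all models. For evx1.L, a homeobox gene at the posterior end of hoxa, the values were 0.92 and 0.34 TPM (stage 9), 5.63 and 7.26 TPM (stage 10.5) and 21.3 and 21.5 TPM (stage 12) (2.21, SE 0.32, adjusted p = 0.000308, then 1.60, SE 0.32, adjusted p = 0.0021). At stage 12 it was therefore above hoxa13.L, the Hox gene of its end of the cluster, which was at 0.18 and 0 TPM.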

How the data were processed

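TPM values for each gene model in 28 libraries are used here as the authors deposited them. BWA 0.7.10 and RSEM 1.2.19 are named in the submitters' processing notes, and the cDNA set is JGIv18pV2 per the labels; their settings are not given in the sources used here. TPM keeps no depth, so no counting error can be given.

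The 28171 models with a TPM of at least 1 in at least 2 of 21 libraries entered limma 3.58.1 (R 4.3.3, variance trend, 9 residual degrees of freedom) as log2(TPM + 1), with terms for stage and for clutch. Tests were two-sided, Benjamini-Hochberg adjustment ran over all models within a contrast, and a model was called where that adjusted p lay under 0.05. Fold changes of low genes are understated. P-values measure the spread between these libraries that is left after the stage and clutch terms, not the spread from clutch to clutch. Rank correlations used Python 3.11.15 and scipy 1.17.1.

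The labels name the clutch as the shared source. Differences between clutches correlated over 0.1 in 45 of 45 pairs of stages (lowest 0.17, median 0.42).

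Members, gene lists and tests were chosen with earlier results of these data known. Named were the highest model per paralog number, up to 4 called rises and falls per step, up to 4 pairs toward each copy and the maternal models; of up to 2 companion genes per list, step and direction, some are printed. Values of 1 gene that the rule names are not reported here, although the counts over all models include it. Alternatives were other pseudocounts, filters, scalings and libraries, and no clutch term.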

Additional observations from a re-analysis of the deposited data

Results flagged for a closer look

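Signals were also present in libraries that entered no test, each with n = 1. hoxb4.L was at 5.58, 9.42 and 8.06 TPM in the oocyte libraries of classes 1-2, 3-4 and 5-6, at 11.45 TPM in stage 8 of the second Ueno series and at 28.49 TPM in the library labelled stage 40 Ueno, whose value lay beside the 27.5 TPM of the Ueno egg. hoxb4.S was at 0.02, 0 and 0.13 TPM in the same oocyte libraries. In stage 10 of the second Ueno series hoxd1.L was at 87.15 and hoxd1.S at 86.79 TPM, above both stage 10.5 libraries of the staged series for each copy. No explanation was tested.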

How the results depend on the processing

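The stage F-test, the numbers of Hox pairs called toward L and toward S and the number of Hox models called higher between stages 12 and 15 stayed within 1.5 times of the values above under every alternative run. With a pseudocount of 0.1 the Hox models called lower were 3 (stage 9 to 10.5), 4 (10.5 to 12), 0 (12 to 15), 7 (20 to 30) and 0 (30 to 35), those called higher were 34 (10.5 to 12), 0 (15 to 20) and 0 (20 to 30), and the clutch term called 0 higher and 17 lower. With a pseudocount of 5, 2 were higher from 9 to 10.5, 13 higher and 0 lower from 10.5 to 12, and 4 lower from 15 to 20. Without a filter 0 were lower from 12 to 15 and 1 from 15 to 20. With a filter at 5 TPM 1 was lower from 10.5 to 12, 2 lower from 15 to 20 and 2 higher from 20 to 30. Median-of-ratios scaling gave 0 lower in the first 2 steps, 2 lower from 15 to 20, and 6 higher and 7 lower in Ueno. Quantile scaling gave 2 higher and 0 lower from 9 to 10.5, 0 lower from 10.5 to 12, 2 lower from 15 to 20, and 7 higher and 2 lower in Ueno.

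Without the replicate block for clutch, 2 were higher from 9 to 10.5, 0 lower in each of the following 2 steps, 1 higher from 15 to 20, 3 higher from 20 to 30 and 1 lower from 30 to 35. The library labelled stage 40 Ueno, when included, gave 2 higher and 0 lower from 9 to 10.5, 13 higher and 0 lower from 10.5 to 12, 0 lower from 12 to 15, 0 higher from 15 to 20, 0 higher and 3 lower from 20 to 30, 0 lower from 30 to 35 and 0 higher in Ueno. Adding the second Ueno series gave 4 lower from 15 to 20 and 2 higher in Ueno. Of the alternatives chosen after seeing the data, leaving out stage 35 Ueno gave 1 lower from 15 to 20, its second-series replacement 4 higher and 3 lower from 15 to 20 and 2 higher in Ueno, and stages 20, 25 and 30 alone 5 higher and 47 lower in Ueno. The causes were not tested.

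Leaving out 1 library at a time left its stage with 1 library, assumed to vary like the others. The models called higher then numbered 2 to 3 (stage 9 to 10.5), 16 to 19 (10.5 to 12), 44 to 51 (12 to 15), 0 to 2 (15 to 20), 1 to 2 (20 to 30) and 0 to 1 (30 to 35). Those called lower numbered 0 to 1 in each of the first 3 steps, then 0 to 5, 4 to 14 and 1 to 15. The F-test gave 71 to 72, the clutch term 0 to 2 higher and 12 to 29 lower, and the pairs 11 to 14 toward L and 13 to 14 toward S. The relation of onset to paralog number was 0.19 with onset in Taira alone and -0.00 (-0.0029) with onset at 10% of a gene's highest mean, against 0.30. TPM keeps no depth, so how far counting error limits values near 1 TPM is unknown.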
